A study of Homo sapiens with 8 samples.

Results

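The insulin-like growth factor (IGF) axis was examined as 10 genes: the ligand IGF1, the receptors IGF1R and INSR, the acid-labile subunit IGFALS, and the binding proteins IGFBP1, IGFBP2, IGFBP3, IGFBP4, IGFBP5 and IGFBP6. They were picked by name out of 20033 protein-coding genes of GENCODE 44 on GRCh38/hg38. A peak was counted for a gene when its summit, the base with the strongest signal, lay in the gene body or within 50 kb of it. This gave 80 of the 60628 peaks in the list, with 60474 nuclear peaks, that is on chromosomes 1-22, X or Y, as the background. The windows of neighbouring members overlapped, so that 11 peaks counted for a pair of genes, 5 for IGFBP1 and IGFBP3 and 6 for IGFBP2 and IGFBP5.

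Bulk ATAC-seq, which cuts open chromatin with the Tn5 transposase and sequences the released fragments, had been run on 8 libraries of HepG2, a human liver cancer cell line. The cells had been fixed with 0.1, 0.5, 1 or 5% formaldehyde (FA) and then either cryopreserved in DMSO freezing medium or flash-frozen. The peak list used here came from 1 of them, fixed with 0.1% FA and cryopreserved, so no condition was compared, no replicate was at hand and no test was run. HepG2 stands for liver as a single transformed line, without the other cells of the organ. Of 10 hepatocyte genes, 8 had a peak within 1000 bp of the transcription start site (TSS), with ALB and AFP lacking one. The counts were 0 of 3 blood genes, 0 of 3 endothelial genes and 0 of 3 stellate cell and fibroblast genes. Over all protein-coding genes the share was 61.5%, and groups of 3 to 10 genes are small. Summits inside the gene body did not separate the groups in this way, with 8 of 10, 2 of 3, 2 of 3 and 3 of 3 genes, beside 62.4%.

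IGF1 is a growth hormone-induced peptide that reaches the circulation mainly from liver and acts through IGF1R, a receptor tyrosine kinase closely related to the insulin receptor INSR. In blood, most IGF1 travels with IGFBP3 or IGFBP5 and the acid-labile subunit, which holds the peptide in the vessels, and the other binding proteins carry or withhold it locally. Hepatocytes are the chief source of IGF1, IGFALS and IGFBP1, and insulin represses IGFBP1 through FOXO factors.

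The sequences of the strongest distal peaks are shown because the highest folds within IGF1R, IGFBP2 and IGFBP5 lay in introns. IGFBP2 and IGFBP5 had no TSS peak to set against theirs. Each run is the 101 bp centred on the summit, on the + strand of GRCh38/hg38, with matches to any of the 13 motifs listed further on in capitals. The first is in intron 2 of IGF1R (chr15:98727779-98727879), the next in intron 2 of INSR (chr19:7198180-7198280), followed by intron 1 of IGFBP2 (chr2:216636777-216636877), intron 1 of IGFBP5 (chr2:216682594-216682694), the stretch upstream of IGFALS (chr16:1833183-1833283) and the stretch beyond the 3′ end of IGF1 (chr12:102388588-102388688), the last being the strongest peak near that gene.
IGF1R intron 2: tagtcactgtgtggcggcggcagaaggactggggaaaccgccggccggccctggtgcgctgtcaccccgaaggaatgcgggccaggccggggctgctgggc
INSR intron 2: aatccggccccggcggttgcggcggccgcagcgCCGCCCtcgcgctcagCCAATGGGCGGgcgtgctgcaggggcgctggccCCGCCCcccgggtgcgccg
IGFBP2 intron 1: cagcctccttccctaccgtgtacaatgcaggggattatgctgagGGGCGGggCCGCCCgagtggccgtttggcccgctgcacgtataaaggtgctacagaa
IGFBP5 intron 1: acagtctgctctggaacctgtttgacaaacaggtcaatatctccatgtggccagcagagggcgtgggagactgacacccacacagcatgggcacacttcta
IGFALS upstream: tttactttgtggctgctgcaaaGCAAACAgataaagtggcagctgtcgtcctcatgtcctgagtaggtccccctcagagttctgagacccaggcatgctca
IGF1 downstream: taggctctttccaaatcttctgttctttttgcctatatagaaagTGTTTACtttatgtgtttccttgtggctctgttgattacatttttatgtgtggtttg
The INSR intron sequence was 83.2% G or C and held GGGCGG or its complement CCGCCC 3 times and CCAAT once. The IGF1 sequence was 33.7% G or C and held the forkhead-type letters TGTTTAC. The IGF1R and IGFBP5 runs held none of the 13 motifs in the exact letters searched. Near variants were not counted: the IGFBP5 run held gcagagggc, which differs from the CTCF letters CCAGNGGGC only in its first base.

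Start-site sequences are shown for the genes of both receptors, which had a TSS peak, and for IGFBP2 and IGFBP3, which had none although their start sites were also rich in G and C. Each is the 250 bases before the RefSeq start (GRCh38.p14), on the strand of the gene: INSR chr19:7294415-7294664 (- strand), IGF1R chr15:98648289-98648538 (+ strand), IGFBP2 chr2:216633170-216633419 (+ strand) and IGFBP3 chr7:45921273-45921522 (- strand). RefSeq promoters were matched for 9 of the 10 genes, not for IGFBP1.
INSR upstream: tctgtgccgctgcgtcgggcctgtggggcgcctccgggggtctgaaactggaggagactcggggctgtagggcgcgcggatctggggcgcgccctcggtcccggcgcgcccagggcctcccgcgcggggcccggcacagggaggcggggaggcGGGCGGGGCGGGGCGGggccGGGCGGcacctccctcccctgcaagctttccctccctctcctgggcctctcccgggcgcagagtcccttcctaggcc
IGF1R upstream: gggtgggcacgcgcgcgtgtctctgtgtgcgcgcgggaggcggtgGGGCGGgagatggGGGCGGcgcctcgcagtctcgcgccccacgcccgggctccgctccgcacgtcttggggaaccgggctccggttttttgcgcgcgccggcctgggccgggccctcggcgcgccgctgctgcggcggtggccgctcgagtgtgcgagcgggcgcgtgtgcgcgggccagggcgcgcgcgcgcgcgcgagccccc
IGFBP2 upstream: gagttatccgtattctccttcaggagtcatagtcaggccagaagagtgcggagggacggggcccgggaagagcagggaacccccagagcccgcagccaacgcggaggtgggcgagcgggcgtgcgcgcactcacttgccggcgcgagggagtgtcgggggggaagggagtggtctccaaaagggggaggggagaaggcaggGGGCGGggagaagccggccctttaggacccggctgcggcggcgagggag
IGFBP3 upstream: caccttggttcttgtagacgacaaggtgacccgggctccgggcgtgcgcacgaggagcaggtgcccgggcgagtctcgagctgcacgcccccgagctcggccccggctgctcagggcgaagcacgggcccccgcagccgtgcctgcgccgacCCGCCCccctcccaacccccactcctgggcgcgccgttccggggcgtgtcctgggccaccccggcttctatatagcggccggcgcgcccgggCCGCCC
The capitals mark GGGCGG or CCGCCC, the core bound by SP and KLF zinc-finger factors, which was the only one of the 13 motifs found in these 4 stretches. It occurred in 7 of the 9 matched promoters and in 42.6% of 35116 RefSeq promoters of this length. Among the other matched promoters, the forkhead-type letters were in 2 of the 9, IGF1 and IGFBP6, beside 6.09% of all. The STAT5 letters TTCNNNGAA were in 1 of the 9, IGFALS, beside 6.57%. G and C made up 78.4% of the stretch in INSR, 81.2% in IGF1R, 69.2% in IGFBP2 and 76.0% in IGFBP3.

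Peaks stood at the TSS of 5 of the 10 genes (50.0%, exact 95% binomial interval 18.7 to 81.3%), beside 61.5% of all protein-coding genes. A summit lay inside the gene body of 9 of 10 (90%, 55.5 to 99.7%), beside 62.4% of protein-coding genes. In the body or its 50 kb flanks it was 10 of 10, beside 92.8%. Gene length was not matched in these counts, and the only summit in the body of IGFALS and of IGFBP1 was that of the TSS peak. INSR, IGFALS, IGFBP1, IGF1R and IGFBP4 had a TSS peak, and IGF1, IGFBP2, IGFBP3, IGFBP5 and IGFBP6 did not. The background shares at start sites and in gene bodies lay inside the intervals of the 10 genes.

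**Figure D1:**
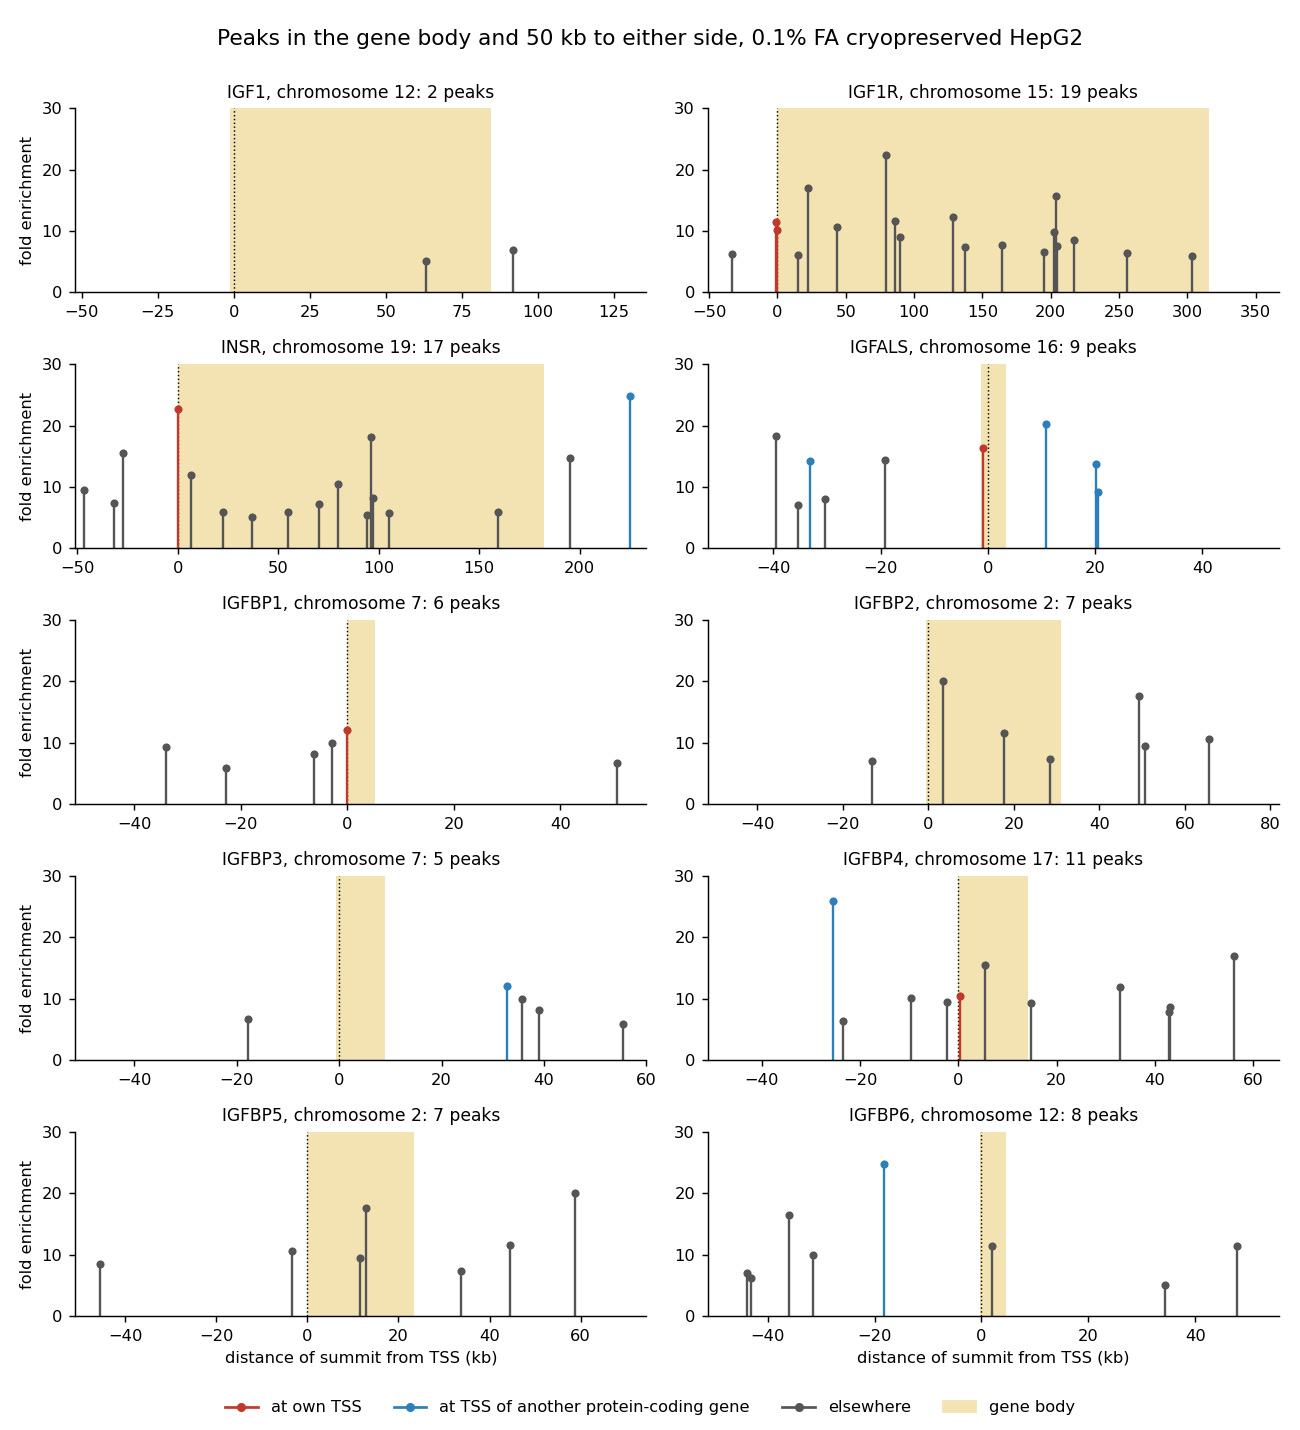
Every peak in the window of each of the 10 genes, with the distance of its summit from the canonical TSS in kb on the x axis (negative is upstream) and its fold enrichment on the y axis. Red marks the gene's own TSS peaks, blue peaks at the TSS of another protein-coding gene and grey the rest, with the gene body shaded; IGF1R has 19 peaks spread over its body, IGF1 has 2, and the body of IGFBP3 has none.

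Fold enrichment is the fragment pile-up at the summit over the local background as given by the peak caller, and its 95% interval here is the exact Poisson interval of the fragments at the summit, which covers counting error only. INSR, the insulin receptor, had the strongest TSS peak of the axis, at fold 22.7 (16.9 to 29.9) from 49 fragments. It was 254 bp wide (chr19:7294333-7294586), with its summit 9 bp upstream of the TSS. Among all protein-coding start sites with a peak it stood at percentile 74.7 by fold, close to the upper quartile of 22.8.

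IGFALS, the subunit that stabilises the circulating IGF1 complex, came next at fold 16.4 (11.9 to 21.97) from 42 fragments. This peak was 481 bp wide (chr16:1794247-1794727) and its summit lay 847 bp upstream of the canonical start, inside a longer transcript of the gene. It was lost when the start-site window was narrowed to 500 bp.

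IGFBP1, the insulin-repressed liver binding protein, had fold 12.1 (8.31 to 17.1) from 30 fragments, 89 bp upstream of the TSS (chr7:45888241-45888485). IGF1R, the receptor for IGF1, had peaks to either side of its start, at fold 11.4 (8.03 to 15.9) with the summit 885 bp upstream (chr15:98647402-98647743) and at fold 10.1 (6.95 to 14.3) with the summit 3 bp downstream (chr15:98648362-98648656). The non-coding antisense gene IRAIN starts within the same stretch, and a peak list has no strand. IGFBP4, a secreted binding protein that inhibits IGF action until it is cleaved by the protease PAPPA, had fold 10.5 (6.66 to 15.7) from 21 fragments, 376 bp downstream of its start in a coding exon (chr17:40443763-40443909).

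From INSR down to IGFBP4, no pair of neighbours differed beyond counting error. The interval of INSR lay above those of IGF1R and IGFBP4 and overlapped those of IGFALS and IGFBP1. IGFALS, IGFBP1, IGF1R and IGFBP4 stood at percentiles 41.5, 21.8, 18.9 and 15.0 of the start-site folds, all below the median of 17.9.

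**Figure D2:**
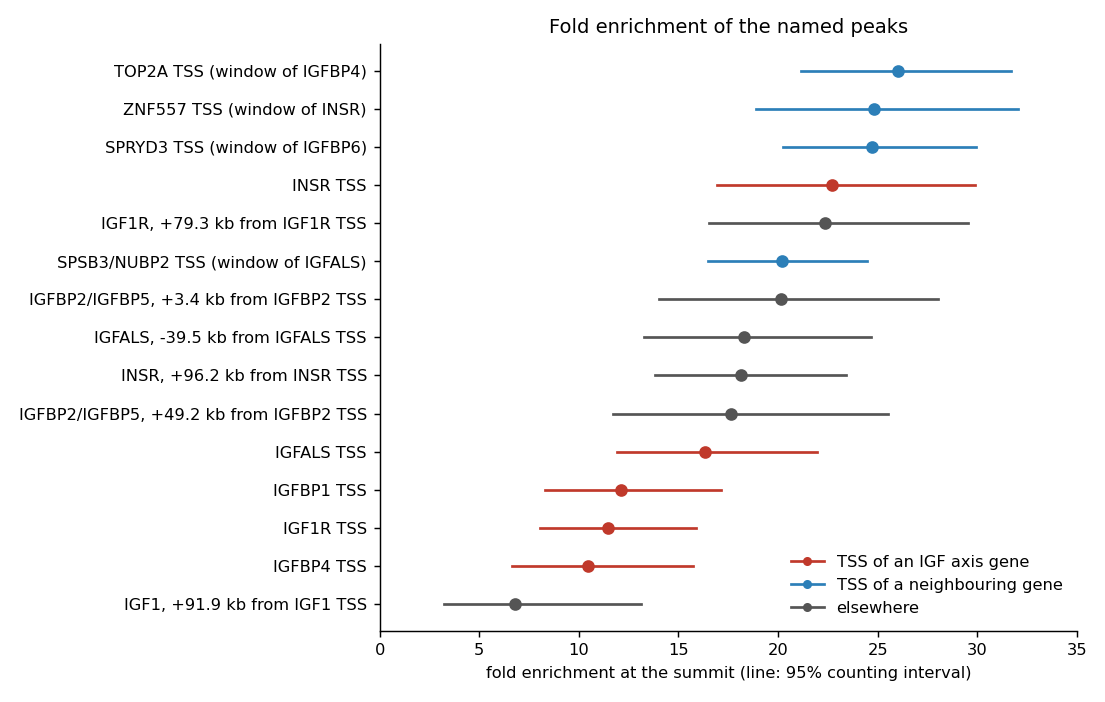
Fold enrichment at the summit on the x axis for the TSS peaks of the axis, the 10 strongest peaks of the windows and the strongest peak near IGF1; lines are 95% counting intervals of 1 library. INSR at 22.7 is the only start site of the axis above 20, next to IGF1R intron 2 at 22.3 and IGFBP2 intron 1 at 20.1.

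The genes without a TSS peak differed in how far the nearest summit lay. It was 1.91 kb downstream of the start in IGFBP6, 3.41 kb downstream in IGFBP2, 3.45 kb upstream in IGFBP5, 17.8 kb upstream in IGFBP3 and 63.3 kb downstream in IGF1. The median over the 7720 protein-coding genes without a TSS peak was 16.8 kb, so that IGFBP2, IGFBP5 and IGFBP6 had a peak nearer than most such genes, IGFBP3 stood close to the middle and IGF1 at percentile 78.1.

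IGF1 was the emptiest locus of the axis. Its 185.9-kb window held 2 peaks, at fold 5.10 (2.23 to 10.8) from 5 fragments in intron 3 and at fold 6.80 (3.24 to 13.1) from 7 fragments 91.9 kb downstream of the start. Both rest on few fragments. No peak lay over a stretch of 407 kb (from chr12:102417408 to chr12:102824590) that takes in the start site, and the density of 1.08 peaks per 100 kb (0.130 to 3.89) was at percentile 16.8 of the windows of protein-coding genes. Since the list holds only what passed the caller's threshold, this is no peak called at this depth, not closed chromatin.

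IGFBP3, which carries most IGF1 in serum, was the only member with no summit in its body. The 5 peaks of its window were all shared with IGFBP1, which lies next to it on chromosome 7. The 50.6 kb between the IGFBP1 promoter peak and a peak of fold 6.73 (7 fragments) upstream of IGFBP3 held none (from chr7:45888485 to chr7:45939066). Upstream of IGFBP1, in contrast, peaks stood 2.89 kb (fold 9.89, 28 fragments), 6.28 kb (8.18, 17 fragments), 22.8 kb (5.89, 6 fragments, in an intron of CCDC201) and 34.02 kb (9.36, 10 fragments) from its start.

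The G and C content around the start sites did not sort the members alone. Within 500 bp of the TSS it was 38.0% in IGF1 and 51.6% in IGFBP5, which fall into the lowest and next-to-lowest of 10 equal groups of protein-coding genes, where 9.38% and 33.0% had a TSS peak. It was 71.0% in IGFBP2, 71.9% in IGFBP3 and 65.8% in IGFBP6, in groups where 79.0%, 79.0% and 75.4% had one. IGFALS at 71.4% and INSR at 69.9% lay in the same group as IGFBP2 and IGFBP3 and had a peak. IGFBP1 at 62.3% (72.3% of its group), IGFBP4 at 74.4% and IGF1R at 76.2% (77.2% of theirs) were the others with a peak. What part base composition has in the missing peaks was not tested.

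**Figure D3:**
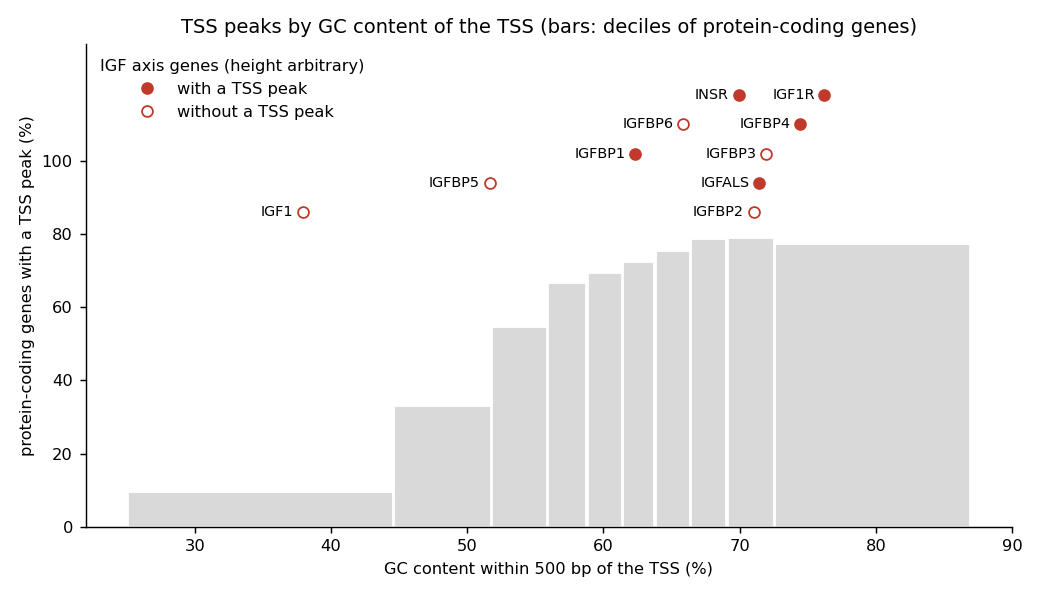
Bars give how many protein-coding genes had a TSS peak (y axis, %) in each of 10 equal groups of genes by G and C content within 500 bp of the TSS (x axis, %); circles place the 10 genes on the x axis alone, filled where a TSS peak was called. IGF1 and IGFBP5 sit over the bars of 9.38% and 33.0%, whereas IGFBP2 and IGFBP3 sit over a bar of 79.0% without a peak.

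IGF1R and INSR carried most of the peaks inside gene bodies, 17 and 11, and both are long genes, so density is given as well. It was 4.57 peaks per 100 kb of window for IGF1R (2.75 to 7.13) and 6.02 for INSR (3.51 to 9.65), at percentiles 55.6 and 69.6 of protein-coding genes. The highest were IGFBP4 at 9.63 (4.81 to 17.2) and IGFALS at 8.61 (3.94 to 16.3). Only 2 of the 11 peaks in the IGFBP4 window and 1 of the 9 in the IGFALS window lay in the gene body. These 2 densities therefore mostly describe the flanks, with their neighbouring genes. The median over the windows of protein-coding genes was 3.98 peaks per 100 kb, which lay above the interval of IGF1, below that of IGFBP4 and inside those of the other 8 genes. Pooled over the 1504 kb of all windows, the axis had 5.32 peaks per 100 kb (4.22 to 6.62), beside 2.85 over the pooled windows of protein-coding genes.

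In IGF1R, intron 2, of 183 kb, held 11 peaks with folds from 6.56 to 22.3, and intron 1, of 57.9 kb, held 3 with folds from 6.12 to 17.0. The strongest, 79.3 kb into the gene (chr15:98727654-98727893), had fold 22.3 (16.5 to 29.5) from 47 fragments, above the interval of both TSS peaks of the gene. The widest peak of all 80, 543 bp, lay in intron 1 at 22.8 kb (chr15:98670953-98671495; fold 17.0, 12.02 to 23.3). A cluster of 3 peaks at 203, 204 and 205 kb reached fold 15.7 in its middle (10.6 to 22.5, 28 fragments).

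In INSR, the TSS peak and the strongest intron peak did not differ beyond counting error. Its TSS peak had fold 22.7, and the strongest of 8 peaks in intron 2, 96.2 kb into the gene (chr19:7198077-7198336), had fold 18.1 (13.8 to 23.4) from 57 fragments, which overlaps it. Weaker peaks of fold 8.19 and 5.36 flanked that summit at 97.0 and 94.4 kb. The other 5 peaks of intron 2 ranged from 5.10 to 10.5.

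Among the binding proteins, the strongest peak lay downstream of the start in intron 1 for IGFBP2, IGFBP5, IGFBP4 and IGFBP6 when only the gene body is considered. Of these, only IGFBP4 had a TSS peak to set against it, and IGFBP6 had no other peak in its body. Intron 1 also takes up 26.6 of 31.6 kb in IGFBP2, 15.4 of 23.4 kb in IGFBP5, 8.9 of 14.3 kb in IGFBP4 and 2.66 of 4.91 kb in IGFBP6. The shared position was thus partly fixed in advance. IGFBP2, a binding protein abundant in fetal liver and many tumours, had fold 20.1 (14.0 to 28.0) from 33 fragments 3.41 kb downstream of its start (chr2:216636785-216636929), with others of fold 11.5 and 7.40 further into the gene. IGFBP5, its neighbour, transcribed on the other strand toward it, had fold 17.6 (11.7 to 25.5) from 26 fragments at 12.9 kb (chr2:216682581-216682743) and fold 9.53 at 11.5 kb. IGFBP4 had fold 15.6 (11.02 to 21.4) from 36 fragments at 5.48 kb (chr17:40448721-40449005), whose interval overlapped that of its TSS peak. IGFBP6, another secreted binding protein, had fold 11.4 (7.68 to 16.5) from 27 fragments at 1.91 kb (chr12:53099470-53099661).

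Some of these peaks lie at starts of shorter or longer transcripts. When any annotated transcript start was allowed, IGFBP2 (through its peak of fold 7.40) and IGFBP6 (through its peak of fold 11.4) gained a TSS peak, which raised the count to 7 of 10, beside 66.9% of protein-coding genes.

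Over all 80 peaks, 6 were at the TSS of a member, 7 at the TSS of another protein-coding gene, 35 elsewhere in a member's body, 11 in the body of another gene and 21 between genes. The median fold of the 80 was 9.52 (quartiles 7.06 and 13.8, range 5.05 to 26.0), beside 10.7 (7.66 and 15.8) for all nuclear peaks. Their median width was 156.5 bp, beside 173 bp, and the summits rested on a median of 16.5 fragments, beside 17. With at most 10 fragments at the summit stood 30.0% of them, beside 25.9% of all peaks. Peaks within 1000 bp of a protein-coding TSS made up 16.3% (8.95 to 26.2%) of the 80 and 22.8% of all, with median folds of 14.3 and 15.5, and the remaining 67 had a median of 8.60, beside 9.88.

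Of the 10 strongest peaks in the windows, 4 belonged by position to neighbouring genes rather than to the axis. They stood at the starts of TOP2A (fold 26.0, 97 fragments, 25.4 kb upstream of IGFBP4), ZNF557 (24.8, 57 fragments, beyond the 3′ end of INSR), SPRYD3 (24.7, 103 fragments, 18.2 kb upstream of IGFBP6) and the shared start of SPSB3 and NUBP2 (20.2, 102 fragments, 10.8 kb downstream of IGFALS). A further strong peak, of fold 18.3 (13.3 to 24.7), lay 39.5 kb upstream of IGFALS (chr16:1833054-1833379) between protein-coding genes. Which gene a distal peak acts on cannot be read from position.

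The 50 bp to either side of each summit were searched on both strands for 13 short motifs, and a match is a description of the letters, not of binding. Only the exact letters given were counted, so sites in other spellings were missed. Forkhead-type letters (FOXA, TGTTTAC or TGTTTGC) were in 10 of the 80 peaks, 12.5% (6.16 to 21.8%), beside 9.08% of all nuclear peaks. They included the downstream peak of IGF1, the start of IGF1R, and introns of IGF1R, INSR and IGFBP5. CEBP letters (TTGCNNAA) were in 7.50%, beside 6.32%, and GGGCGG in 18.8%, beside 17.9%. Among the 67 peaks away from protein-coding start sites, GGGCGG was in 11, 16.4% (8.49 to 27.5%), beside 8.59% of all such peaks, a share just inside the interval. The NFY letters ATTGG were in 18.8% (10.9 to 29.0%), beside 14.3%.

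The insulin response letters read by FOXO factors (CAAAACA) were in 5 peaks, 6.25% (2.06 to 14.0%), beside 2.01% of all peaks. These were the IGFBP1 promoter peak, where the match began 29 bp before the summit, an intron 2 peak of IGF1R (fold 11.6), peaks 27.0 kb (fold 15.5) and 46.8 kb (fold 9.52) upstream of INSR, and a peak in an intron of TNS4 within the window of IGFBP4 (fold 7.88). The count is small and 13 motifs were searched, and with 25 bp to either side 1 match was left, 1.25% beside 0.901%. With 100 bp the share was 8.75% (3.59 to 17.2%), beside 4.10%, which lay inside the interval. Away from protein-coding start sites the share with 50 bp was 5.97% (1.65 to 14.6%), beside 2.43%. The IGFBP1 promoter peak also held the single match to the HNF1 letters (GTTAATNAT, 1.25% beside 0.956%), which overlapped CCAAT.

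Letters for HNF4A (CAAAGTCCA) were in 0 of 80 peaks, which allows a share of up to 3.75% by a limit of 3 counts and 4.51% by the exact interval, beside 1.41% of all, and those for NRF1 (GCGCATGCG) in 0, beside 0.549%. AP-1 letters (TGANTCA) were in 2.50%, beside 5.58%, STAT5 letters (TTCNNNGAA), the response element of growth hormone signalling, in 1.25%, beside 2.35%, and glucocorticoid receptor letters (ACANNNTGT) in 2.50%, beside 2.62%. CTCF letters (CCAGNGGGC) were in 3.75%, beside 2.96%, among them peaks 885 bp upstream of IGF1R and 34.02 kb upstream of IGFBP1. ETS letters (CCGGAAG) were in 2.50%, beside 3.18%. With 50 bp to either side, the share over all nuclear peaks lay inside the interval of the 80 for all motifs except that of FOXO.

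**Figure D4:**
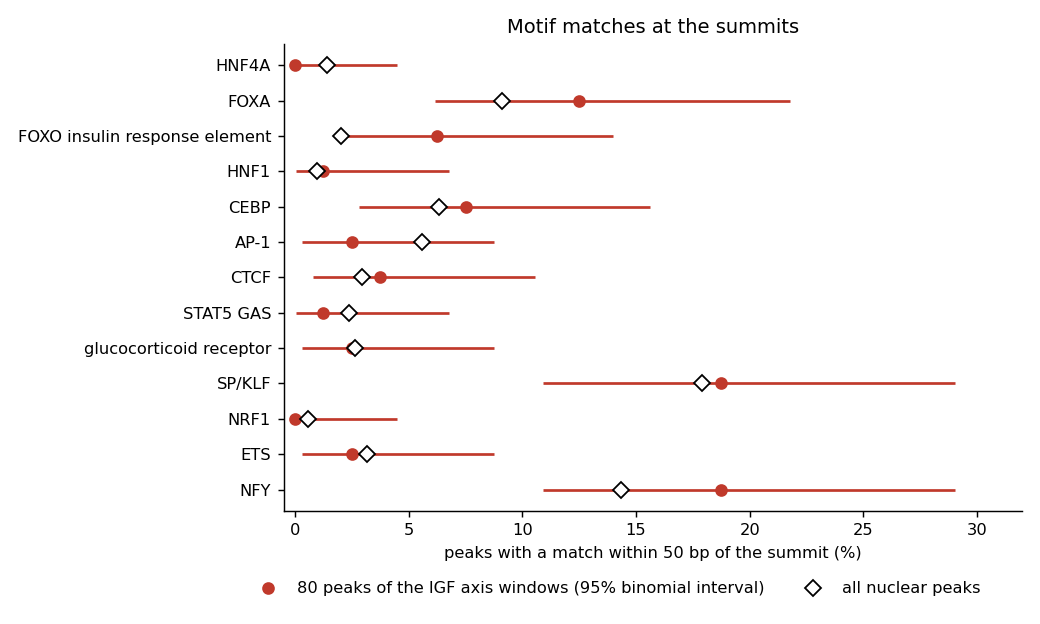
Share of peaks with a match within 50 bp of the summit (x axis, %) for each of 13 motifs (y axis); red points are the 80 peaks with exact 95% binomial intervals, open diamonds all nuclear peaks. The diamond lies inside the red line for each motif other than the FOXO insulin response element, whose line starts at 2.06% beside a diamond at 2.01%.

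Of 44 other genes of the pathway, 35 had a TSS peak (79.5%, 64.7 to 90.2%), beside 61.5% of protein-coding genes, with a median fold of 15.3. That background was not matched for G and C content, along which the share with a TSS peak ran from 9.38% to 79.0%. Whether pathway genes differ from genes of like G and C content was not tested. All 10 genes of the PI3K and AKT arm, which relays receptor signals inside the cell, had one (median fold 21.5), the strongest being PTPN1 at fold 30.4, which encodes the phosphatase PTP1B that switches insulin receptors off. All 10 downstream genes had one as well (median fold 17.9), with TSC2, a brake on mTOR, at fold 25.9 on a start shared with NTHL1.

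The other groups each held genes without a TSS peak. Of the other ligand and receptor genes, 2 of 4 had a TSS peak, with the growth hormone receptor GHR at fold 19.3, and INS and INSRR lacked one. Of the binding protein relatives, proteases and inhibitors, 3 of 7 had one, with the PAPPA inhibitor STC2 at fold 15.1, and IGFBP7, PAPPA, PAPPA2 and STC1 lacked one, with their nearest summits at 9.10, 37.0, 3.52 and 172 kb. Of the growth hormone signalling genes, 4 of 5 had one, with the receptor-bound kinase JAK2 at fold 16.2, and the feedback inhibitor SOCS2 had its nearest summit 1.72 kb upstream. Of the adaptors, 6 of 8 had one, with GRB2 at fold 25.3, and IRS2 and GRB10 lacked one, with nearest summits 16.5 and 10.7 kb upstream. The groups hold 4 to 10 genes each, their intervals overlapped, and differences between them were not tested.

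**Figure D5:**
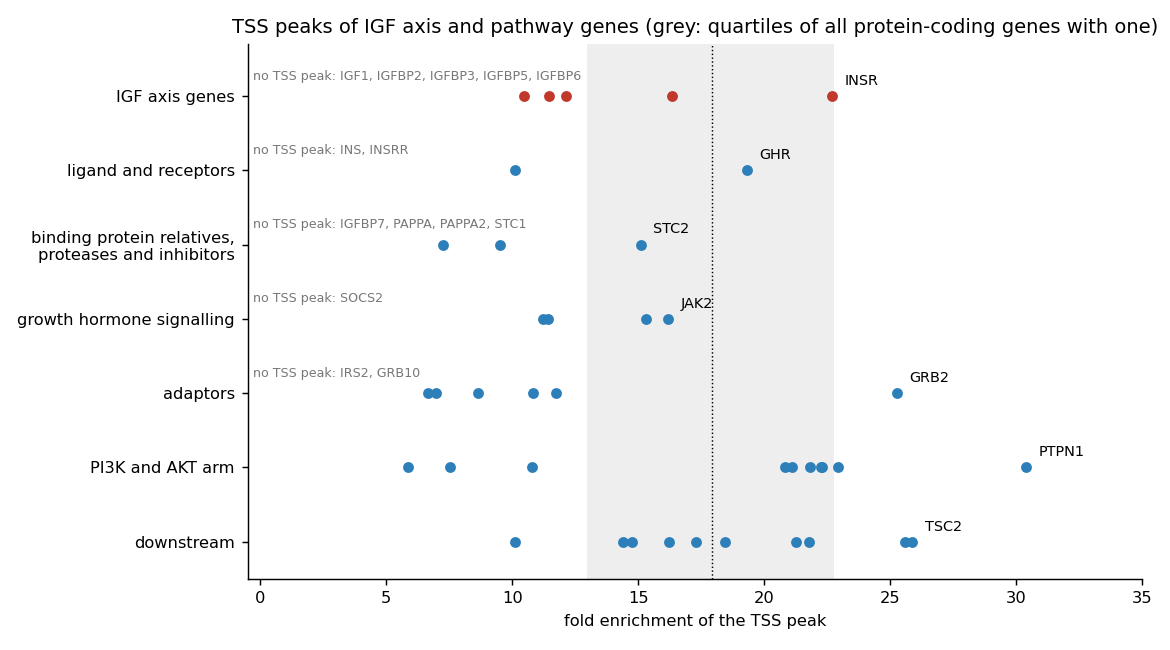
Fold enrichment of the TSS peak (x axis) of each gene with one, by role (y axis), red for the 10 IGF axis genes and blue for the 44 pathway genes, with genes lacking a TSS peak named in grey. The shaded band spans the quartiles over all protein-coding start sites with a peak, 13.0 to 22.8, and the dotted line their median, 17.9; 3 of the 5 axis genes with a TSS peak lie left of the band.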

How the data were processed

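Bulk ATAC-seq peaks of 1 of 8 HepG2 libraries were used. The authors used snakePipes for trimming (cutadapt), alignment to GRCh38 (Bowtie2) and removal of duplicates, then ran MACS2 on its output with the caller's standard settings. The submitters' processing notes also name bcl2fastq and deepTools 3.5.5. The version of MACS2 was not given in the sources used here, which name no shift of read ends to the Tn5 cut site; such a shift would move summits by a few bases. The authors deposited for each peak a score, a ratio (fold enrichment at the summit), a −log10 p and a −log10 q value, and the position of the summit. Total read depth is not part of the list.

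Genes and canonical transcripts came from GENCODE 44, with 1000 bp to either side of the TSS as the start-site window. The fragments at each summit were solved from the fold and the −log10 p as whole numbers (tolerance 0.01, background at least 0.15), which worked for 99.6% of all peaks and 80 of 80 here, although 2 of these had another whole solution. Tested on simulated data, this gave 3000 of 3000 fragment numbers back, 200 of 200 window counts and 28 of 28 planted motifs. Members, pathway and marker lists and motifs were chosen with earlier results of these data known. Named were all members, their TSS peak and strongest peak, the 10 strongest peaks, and per pathway role the top gene and those without a TSS peak; other peaks were named after their values were seen. Alternatives were other start-site and window sizes, any transcript start, a stricter −log10 q and other motif windows. Python 3.11.15, pandas 2.3.3, scipy 1.17.1 and pysam 0.24.0 were used.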

Additional observations from a re-analysis of the deposited data

How the results depend on the processing

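Of 58 recomputed values, 6 moved, which for a count means by more than 1.5 times and for a density or share out of its 95% interval. The 80 peaks became 39 in the gene bodies alone, a shorter window, and 27 with a −log10 q of at least 20, where the density fell to 1.80 per 100 kb because fewer peaks were kept. With 25 bp to either side of the summit, a window with fewer bases, the FOXA share was 5%, beside 4.77% of all nuclear peaks. The FOXO share was 1.25%, beside 0.901%, and the HNF1 share 0%, beside 0.380%. Another 12 motif shares stayed inside their intervals but changed by over 1.5 times. With 25 bp, CEBP gave 3.75%, beside 2.92% of all nuclear peaks, CTCF 1.25%, beside 1.25%, and SP/KLF 11.3%, beside 10.3%. The glucocorticoid receptor gave 1.25%, slightly below the share of all nuclear peaks. With 100 bp, FOXA gave 21.3%, CEBP 12.5%, AP-1 5%, CTCF 7.50%, STAT5 2.50%, the glucocorticoid receptor 5%, ETS 6.25% and NFY 28.8%. Genes of the axis with a TSS peak were 4 with a 500 bp window (IGFALS lost), 6 with 2500 bp (IGFBP6 gained), 5 by summit, 7 from any transcript start and 4 at the stricter q (IGFBP4 lost), beside 59.2, 65.6, 61.0, 66.9 and 50.7% of protein-coding genes, a background added after seeing the data. The pathway genes gave 34, 36, 35, 37 and 25. No paired analysis was possible because each group had 1 library and 1 peak list was used. At 5 to 10 fragments a summit, folds are known only within about the intervals given.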
